A study of Mus musculus with 20 samples.

Results

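Late-only p65 sites were called for p65 at 8 h of LPS in both genotypes, with no earlier p65 centre within 500 bp. The distance was measured from the WT peak centre alone, and the KO 8 h centre lay up to 364 bp from it. A peak of the p65 WT 8 h list was a member where it overlapped a p65 KO 8 h peak by at least 1 bp and its centre lay more than 500 bp from every peak centre of the 4 earlier p65 lists, which were KO and WT control and KO and WT LPS 30 min. The rule found 1570 of the 31007 WT 8 h peaks, or 5.06% (exact 95% interval 4.82 to 5.31%; all intervals here cover counting error only). Of the 12 peak lists used, 6 were p65 and 6 were SOCS1, and together they held 258959 peaks. The members were thus chosen by the measured p65 calls and their distances, so all p65 values below are a description. The SOCS1 lists, the position in the genome and the genes nearby did not enter the rule directly. They are not independent of it, however. Earlier p65 centres, which the rule avoids, lay within 10 kb of 67.1% of genes. The p65 and SOCS1 lists of a genotype and time also shared 1 IgG library.

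p65, encoded by Rela, is a subunit of NF-kB that is held in the cytoplasm by inhibitors of the IkappaB family until a receptor such as TLR4 senses LPS. In macrophages p65 reaches chromatin within minutes, is drawn back by newly made inhibitors and returns, and part of the later response depends on cytokines and interferon that the cells release in the meantime. SOCS1 is an inducible inhibitor of cytokine and interferon signalling through JAK kinases, and it has also been linked to the turnover of p65 in the nucleus.

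The cells were mouse bone-marrow-derived macrophages grown with M-CSF, KO or WT, and each genotype was analysed without LPS (control), after 30 min and after 8 h with LPS at 100 ng/mL. The labels name the KO gene as NOS1 in the design text, while the title concerns SOCS1, so the groups are called KO and WT here. The design text gives the WT strain as C65BL6, and age, sex and the number of animals are not given in the sources used here. CUT&RUN, in which antibody-bound chromatin is cut out by a tethered nuclease, gave 1 library for each antibody, genotype and treatment, so no group had a replicate and no test between groups was possible. Sites of 1 library are not replicates, and differences between shares below were not tested. The labels list 20 samples, of which 6 were IgG libraries that served the authors as peak-calling background and 2 were internal controls not used here. The p65 libraries held 8.79, 18.4 and 11 M tags in KO cells (control, 30 min, 8 h; 10 M are 10000000) and 7.69, 13.3 and 10.6 M in WT cells, and the SOCS1 libraries 6.93 to 9.74 M. In the KO control lists IgG was at the floor of 0.5 tags under 91.4% of p65 peaks and 88.0% of SOCS1 peaks, against 14.7 to 43.0% in the other lists. Peak lists carry no expression, so they do not establish the labelled cell type. Of 20 macrophage identity genes, 19 had a WT 8 h p65 site within 10 kb, against 52.6% of all genes. A late-only site was near 0 of the 20, against 3.19% of all genes. A WT 8 h site was also near 14 of 15 housekeeping, 8 of 10 dendritic cell, 8 of 12 neutrophil and 7 of 14 lymphocyte genes.

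Of the 1520 late-only sites on chromosomes that the promoter table covers, 21 overlapped the 250 bases upstream of an annotated start site and touched 23 promoters of 21 genes. Coordinates are those of mm10, and the sequences below are from RefSeq, GRCm38.p6, each written 5′ to 3′ along its gene, with a motif match in capitals. Ifi206 encodes an interferon-inducible DNA-binding protein of the PYHIN family. Its promoter at chr1:173491319-173491568 (minus strand) is shown because its site was the highest-ranked one at any gene with no earlier p65 site within 10 kb. The capitals mark the interferon element, a pair of GAAA repeats with 2 bases between them that interferon-activated factors read, at bases -40 to -31 before the start site and outside the 239 bp WT peak.
Ifi206: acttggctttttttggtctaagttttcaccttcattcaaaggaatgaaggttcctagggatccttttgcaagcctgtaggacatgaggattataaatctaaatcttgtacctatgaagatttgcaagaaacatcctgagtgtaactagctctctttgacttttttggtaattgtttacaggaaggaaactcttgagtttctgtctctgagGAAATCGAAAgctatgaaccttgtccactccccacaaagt
Cactin encodes a spliceosome-associated protein that was first found in Drosophila as a partner of the IkappaB homologue. Its promoter at chr10:81320853-81321102 (plus strand) is shown because its site had the highest WT SOCS1 score of the late-only sites called for SOCS1 at 8 h in both genotypes. It held neither the interferon element nor the NF-kB consensus, the sequence that NF-kB dimers read.
Cactin: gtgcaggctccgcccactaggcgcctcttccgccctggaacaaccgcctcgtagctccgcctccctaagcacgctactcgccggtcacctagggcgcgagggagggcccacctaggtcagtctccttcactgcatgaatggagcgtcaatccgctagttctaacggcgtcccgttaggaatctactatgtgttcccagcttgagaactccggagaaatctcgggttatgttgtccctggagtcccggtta
The other 3 promoters are all those among the 23 that held the NF-kB consensus, at chr12:40248137-40248386 (minus strand), chr5:109923203-109923452 (plus strand) and chr16:58826762-58827011 (minus strand). The match lay inside the WT peak in each.
Gm40403: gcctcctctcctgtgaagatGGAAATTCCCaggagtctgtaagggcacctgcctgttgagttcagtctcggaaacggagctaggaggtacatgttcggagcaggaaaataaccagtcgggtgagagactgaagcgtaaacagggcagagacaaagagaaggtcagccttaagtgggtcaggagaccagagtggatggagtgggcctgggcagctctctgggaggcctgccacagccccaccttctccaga
LOC115490200: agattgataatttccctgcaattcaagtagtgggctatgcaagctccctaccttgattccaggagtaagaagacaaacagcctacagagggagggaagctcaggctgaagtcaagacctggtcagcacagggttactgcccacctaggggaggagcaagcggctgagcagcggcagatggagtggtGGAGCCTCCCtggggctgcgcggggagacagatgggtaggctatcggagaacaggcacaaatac
Olfr175: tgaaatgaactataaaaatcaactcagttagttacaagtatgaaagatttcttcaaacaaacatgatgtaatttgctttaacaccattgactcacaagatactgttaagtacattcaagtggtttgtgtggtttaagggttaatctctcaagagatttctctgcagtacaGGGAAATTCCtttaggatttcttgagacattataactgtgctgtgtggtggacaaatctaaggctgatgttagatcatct
All of these except Cactin were chosen after their values were seen. Searched on both strands, the NF-kB consensus was in 3 of the 23 promoters (13%), against 10.6% of 573 promoters under sustained sites and 7.25% of all 32851 promoters. The interferon element was in 1 of 23 (4.35%), against 4.19% under sustained sites and 2.98% of all promoters. TGANTCA was in 2 of 23 (8.70%, all promoters 6.75%), TTCNNNGAA in 3 (13%, all promoters 7.02%), TTGCNNAA in 2 (8.70%, all promoters 9.56%) and GGAAGT in 2 (8.70%, all promoters 19.7%). With 23 promoters the interval around the NF-kB share ran from 2.78 to 33.6%, so no difference from other promoters was detectable.

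The rule kept few of the late sites. Of the WT 8 h peaks, 5490 (17.7%) lay away from every earlier centre, and 28.6% of these overlapped a KO 8 h peak, against 52.2% of the 25517 WT 8 h peaks with an earlier centre nearby. Seen from the KO list, 1645 of 5887 KO 8 h peaks away from earlier centres (27.9%) overlapped a WT 8 h peak. The 1570 members lay under 1560 distinct KO peaks, and 20 members shared a KO peak with another. They spread over chromosomes 1 to 19 and X, with the highest share, 8.85%, on chromosome 2, which held 8.51% of all WT 8 h peaks.

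Late-only sites had lower p65 scores than sustained sites in both genotypes. A score is the authors' findPeaks score, in tags of that library, and sustained sites were the 6100 shared 8 h sites with a centre within 500 bp in both 30 min lists and none in a control list. The median KO score was 29.0 at late-only sites (quartiles 20.0 and 44.0) and 40.5 at sustained sites, and the median WT score was 16.5 (quartiles 12.5 and 24.0) at late-only sites and 24.5 at sustained sites. The lowest score that was called was 12 tags in the KO list and 10 in the WT list, so many members sat close to the calling limit. Of the 1570 members, 31.8% were in the lowest of 4 score classes of nearly equal size in the WT list, 31.5% in the second, 22.4% in the third and 14.3% in the highest. The signal, the authors' tag count per 10000000 tags, was higher in KO than in WT at most members, with a median KO over WT ratio of 1.77 (quartiles 1.33 and 2.38) against 1.62 at sustained sites. KO peaks were 493 bp wide and WT peaks 239 bp, and per base of peak the median ratio was 0.859 at late-only sites and 0.786 at sustained sites. Which genotype is higher therefore depends on the peak width, and no direction is given. IgG was at the floor under 42.4% of late-only sites in KO and 52.2% in WT, against 26.8% of sustained sites in KO and 35.7% in WT.

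**Figure D1:**
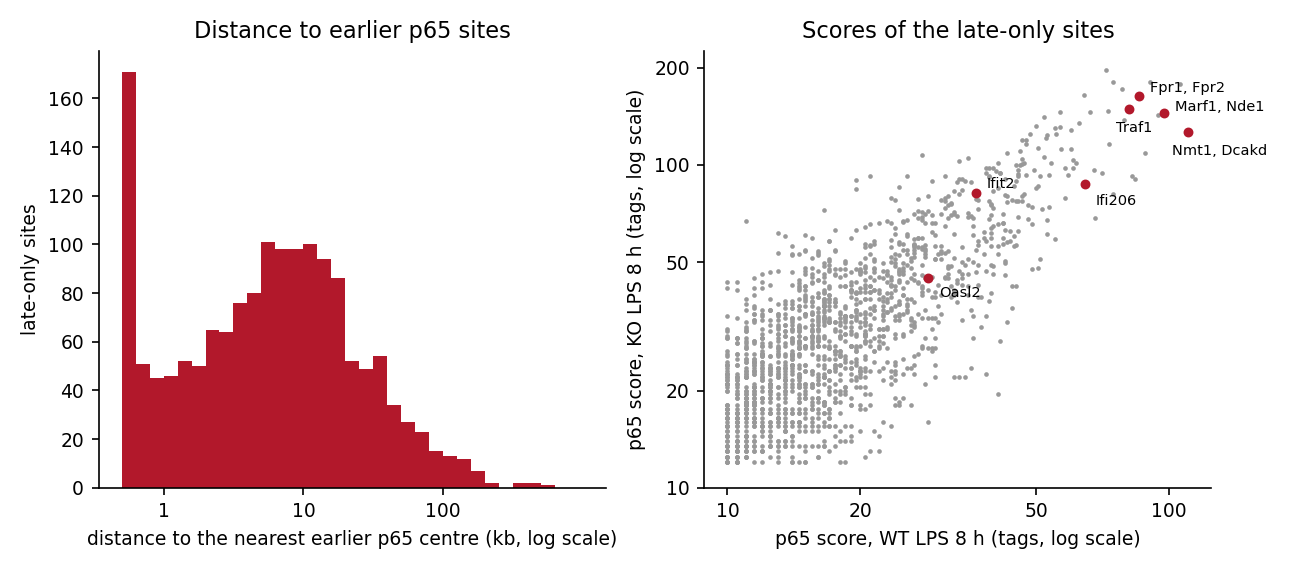
Left, histogram of the distance in kb (log axis) from each of the 1570 late-only sites to the nearest p65 centre of the 4 earlier lists; the tallest bar is the first, just beyond the 500 bp limit, and a broad hump surrounds 10 kb. Right, KO against WT p65 score at 8 h in tags (log axes), 1 grey point per site and red points for sites named in the text, with Ifi206 at 87.0 tags in KO and 64.5 in WT.

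An earlier p65 centre lay within 10 kb of most late-only sites. This distance entered the rule, and the same share was not computed for other WT 8 h peaks or other positions. The distances are thus a description, and whether they are unusual was not tested. The nearest earlier centre was a median of 6154 bp away (quartiles 1808 and 15298 bp), and it was within 10 kb at 998 sites (63.6%) and farther at 572 (36.4%). It belonged to the KO 30 min list at 786 sites, to the WT 30 min list at 536, to the KO control list at 121 and to the WT control list at 127. A group of 267 sites (17%) lay within 1000 bp of an earlier centre, and 214 of these lay within 750 bp. Those 214 had median scores of 44.0 in KO and 20.0 in WT, against 24.0 in KO and 15.5 in WT for the 468 sites between 10 and 50 kb away. A site inside Upp1, which encodes uridine phosphorylase, was just inside the rule at 501 bp, with scores of 101.5 in KO and 54.0 in WT. The site just outside it, at 500 bp on chr9:40630961-40631199, scored 40.0 in KO and 20.5 in WT. HOMER does not call 2 peaks of a list closer than a set distance, and 47 members (2.99%) lay closer than that to an earlier centre. The lists differed in depth. Scaled to the depth of each earlier library, the WT 8 h score reached the tag threshold of the KO control list at 1421 sites (90.5%). It reached that of the WT control list at 1223 (77.9%). For both 30 min lists it did so at all 1570, as any WT 8 h peak would. Those libraries were deeper, with thresholds of 11 tags in KO and 10 in WT, and the lowest WT 8 h score was 10. The scaling left out the fold limits and the peak widths, so it does not show that a site would have been called.

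The highest-ranked sites included several at immune genes, and all of the first 12 lay within 10 kb of an earlier p65 centre. Sites were ranked by the lower of their KO and WT score percentiles, and the first 12 scored 116.0 to 180.5 tags in KO and 72.5 to 110.5 in WT. Of these 12, 6 lay within 1000 bp of an earlier centre and 0 lay over 10 kb away. Inside Nfkb1, which encodes the p105 precursor of the p50 subunit, 1 KO peak of 180.5 lay across neighbouring WT peaks of 90.5 at chr3:135669785-135670023 and 74.5 at chr3:135670330-135670568. A site inside Ly75, the endocytic receptor DEC-205, at chr2:60370021-60370259 scored 142.5 in KO and 94.5 in WT. A site inside Pla2g4a, the phospholipase that frees arachidonic acid, at chr1:149841615-149841853 scored 171.5 in KO and 78.0 in WT, 507 bp from a KO 30 min centre. None of these peaks was tied to expression, which was not measured here. Beside Fpr1 and Fpr2, the formyl peptide receptors that guide phagocytes to bacteria, 1 site at chr17:17884499-17884737 scored 163.0 in KO and 85.5 in WT, 679 bp from an end of Fpr1 and 5502 bp from the nearest earlier centre. Traf1, an NF-kB-induced adaptor of TNF receptors, held a site at chr2:34954116-34954354 that scored 149.0 in KO and 81.0 in WT. The top site of all, at chr6:72023371-72023609, had no gene end within 10 kb. It scored 177.5 in KO and 106.0 in WT, and its nearest gene was Polr1a, 44055 bp away. The rest were a site inside Marf1, an RNA-binding regulator of oocyte meiosis (145.0 in KO, 97.5 in WT), one inside Dcakd and 977 bp from Nmt1 (126.5 in KO, 110.5 in WT), one near Ppp1r15b (137.5 in KO, 79.0 in WT), and intergenic sites 38771 bp from Ch25h (116.0 in KO, 73.0 in WT) and 94743 bp from Ptgs2 (146.5 in KO, 72.5 in WT). Ch25h makes 25-hydroxycholesterol and Ptgs2 encodes the inducible cyclooxygenase, and their sites lay 597 and 552 bp from a 30 min p65 centre.

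SOCS1 calls at these sites came late as well. The design text names NOS1 as the KO gene, and the peak lists cannot check this. A SOCS1 peak in KO cells therefore stands for a call with the SOCS1 antibody, and whether SOCS1 protein was there is not known. In KO cells a SOCS1 peak overlapped 121 late-only sites (7.71%) in control, 100 (6.37%) at 30 min and 362 (23.1%) at 8 h, where all WT 8 h p65 peaks had 25.0%, 32.0% and 30.9%. In WT cells it overlapped 41 (2.61%) in control, 57 (3.63%) at 30 min and 244 (15.5%) at 8 h, where all WT 8 h p65 peaks had 14.5%, 27.9% and 29.3%. The share was thus below that of p65 peaks in general at each of the 3 times. At 8 h the number of late-only sites with SOCS1 was 3.62 times that at 30 min in KO and 4.28 times in WT, while at sustained sites the ratio of these numbers was 1.01 in KO and 0.999 in WT. Sustained sites had SOCS1 at 22.5%, 42.0% and 42.4% in KO and 12.2%, 37.3% and 37.3% in WT (control, 30 min, 8 h). Transient early sites were 4782 WT 30 min peaks that overlapped a KO 30 min peak and had no control or 8 h p65 centre within 500 bp. Their SOCS1 share was lower at 8 h than at 30 min, with 12.1%, 16.7% and 6.98% in KO and 5.31%, 18.4% and 4.91% in WT. The exact intervals at late-only sites ran from 21.0 to 25.2% in KO and 13.8 to 17.4% in WT at 8 h. At 30 min they ran from 5.21 to 7.69% in KO and 2.76 to 4.68% in WT. Each covers counting error over the sites of 1 library and not the spread between libraries, so the change with time was not tested. The SOCS1 lists as a whole were shorter at 8 h, with 15633 in KO at 8 h against 19931 at 30 min and 13720 in WT at 8 h against 19631 at 30 min.

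**Figure D2:**
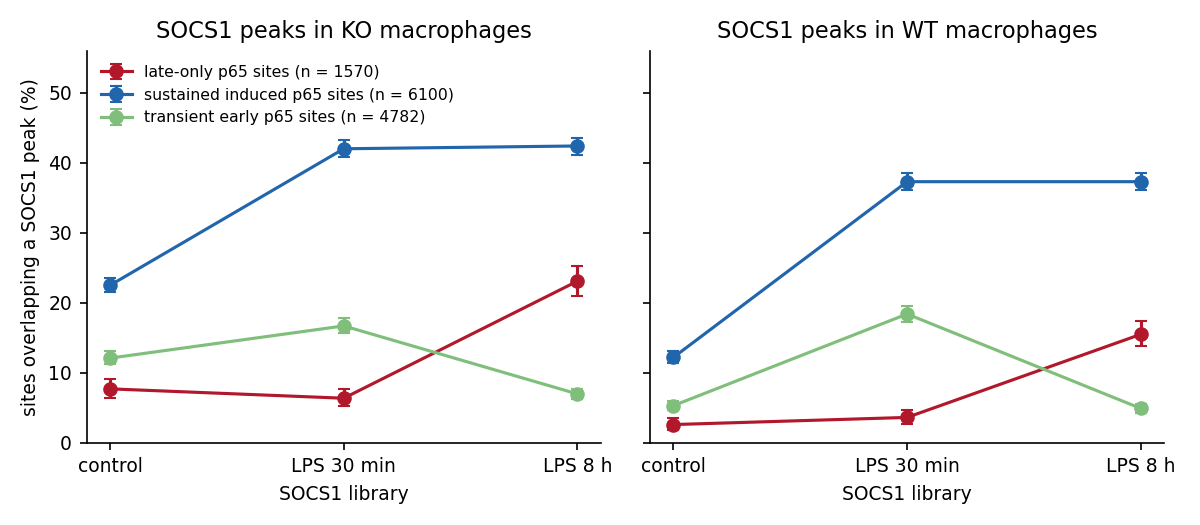
Share of sites (%) overlapping a SOCS1 peak of the control, 30 min and 8 h libraries, KO left and WT right, with exact 95% intervals over sites. The late-only line (red) is low until 30 min and reaches 23.1% in KO and 15.5% in WT at 8 h, the sustained line (blue) is level between 30 min and 8 h, and the transient line (green) is lower at 8 h than at 30 min.

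Where SOCS1 was called at a late-only site, it was mostly called at 8 h alone. Of the 488 late-only sites with a SOCS1 peak in KO at any time, 288 (59.0%) had it at 8 h alone, 28 (5.74%) at 30 min and 8 h, and 13 (2.66%) at all 3 times. Of the 303 such sites in WT, 211 (69.6%) had it at 8 h alone, 13 (4.29%) at 30 min and 8 h, and 5 (1.65%) at all 3. Among sustained sites with SOCS1, 22.0% in KO and 26.0% in WT had it at 8 h alone. Even so, 947 late-only sites (60.3%) had no SOCS1 peak in any list, against 21.8% of sustained sites, and 114 (7.26%) had one in both genotypes at 8 h, against 21.8% of sustained sites. The SOCS1 peaks were modest, with median scores at 8 h of 15.5 in KO and 13.5 in WT at late-only sites, against 19 in KO and 17.5 in WT at sustained sites.

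At 8 h SOCS1 was called more often at stronger p65 sites, and at late-only sites its share was higher at 8 h than at 30 min in every class of p65 strength. In KO at 8 h the SOCS1 share of late-only sites was 9.40%, 20.0%, 33.3% and 44.0% from the lowest to the highest class of p65 score, and that of sustained sites was 19.6%, 30.3%, 43.1% and 57.7%. In WT at 8 h it was 3.6%, 12.3%, 21.9% and 39.1% at late-only sites and 11.5%, 16.8%, 35.4% and 60.8% at sustained sites. Late-only sites were thus lower in every class in both genotypes. In the second class in WT the intervals overlapped, with 9.58 to 15.6% at late-only and 14.9 to 18.9% at sustained sites. At 30 min the share at late-only sites stayed between 3.4 and 9.33% in KO and between 2.00 and 5.70% in WT in every class, while that of sustained sites ran from 25 to 54.8% in KO and from 20.4 to 50% in WT. The late-only share in WT at 30 min did not rise throughout, with 5.70% in the third class and 3.56% in the highest.

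**Figure D3:**
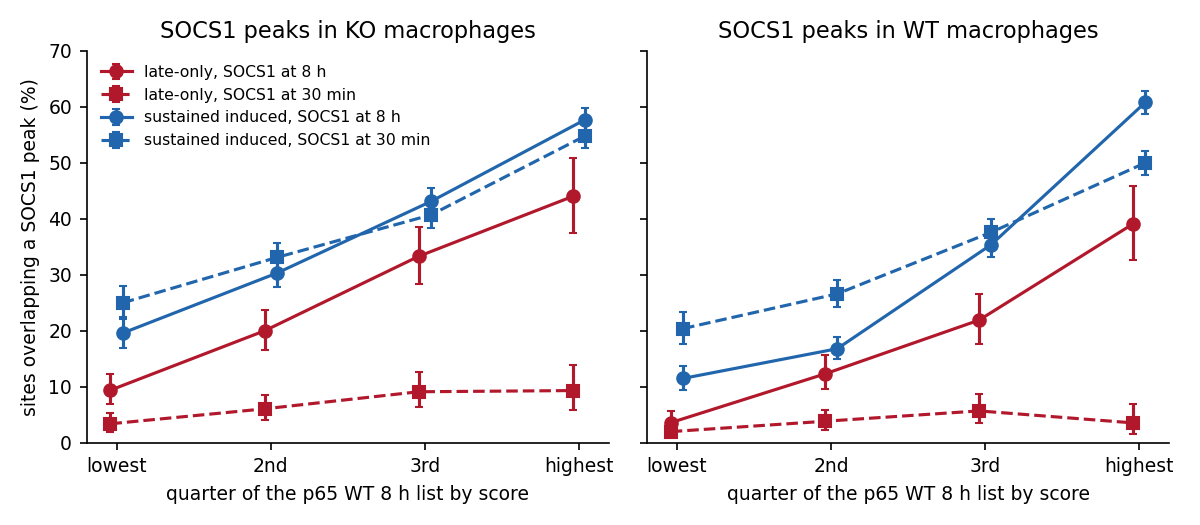
Share of sites (%) overlapping a SOCS1 peak at 8 h (circles, solid) and 30 min (squares, dashed), in 4 classes of the p65 WT 8 h list by score, with exact 95% intervals over sites, KO left and WT right. Late-only sites (red) reach 44.0% in KO and 39.1% in WT at 8 h in the highest class while their 30 min shares stay below 10%; sustained sites (blue) run from 19.6 to 57.7% in KO and from 11.5 to 60.8% in WT at 8 h.

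SOCS1 was called more often at 8 h than at 30 min whether the sites lay near earlier p65 centres or far from them. At the 572 sites over 10 kb from any earlier centre, SOCS1 was called at 23 (4.02%), 11 (1.92%) and 102 (17.8%) in KO and at 6 (1.05%), 4 (0.699%) and 63 (11%) in WT, for control, 30 min and 8 h. At the 731 sites between 1000 bp and 10 kb it was called at 6.70%, 5.88% and 24.8% in KO and at 2.60%, 3.83% and 17% in WT. At the 267 sites within 1000 bp it was called at 18.4%, 17.2% and 29.6% in KO and at 5.99%, 9.36% and 21.3% in WT. Sites near an earlier p65 centre therefore had more SOCS1 calls at all 3 times. The p65 and SOCS1 lists of a genotype and time were called against 1 shared IgG library. The late-only sites with IgG at the floor had SOCS1 at 8 h in 19.2% of cases in KO and 15.0% in WT, and those with IgG above it in 25.9% in KO and 16.1% in WT.

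The 6 late-only sites with the highest WT SOCS1 score among those called in both genotypes at 8 h differed in when SOCS1 was first called. At the Cactin site SOCS1 scored 69.5, 80.5 and 78.0 in KO, and 52.0 in control and 61.0 at 8 h in WT, where it was not called at 30 min. It thus had SOCS1 before LPS, and its nearest earlier p65 centre was 630 bp away in the KO control list. The site inside Plod1, a collagen lysyl hydroxylase, had SOCS1 scores of 23.5, 20.0 and 37.0 in KO, and of 21.5 at 30 min and 32.5 at 8 h in WT, over p65 scores of only 17.5 in KO and 20.5 in WT. The other 4 had SOCS1 in neither control nor 30 min library of either genotype. Inside Dcakd and beside Nmt1, which attaches myristate to proteins, SOCS1 scored 65 in KO and 51.0 in WT at 8 h (chr11:103027248-103027486). Near Ppp1r15b, a subunit of the phosphatase that acts on the translation factor eIF2alpha, it scored 69.0 in KO and 48.5 in WT (chr1:133129541-133129779). At the antiviral gene Ifit2 it scored 35.5 in KO and 33.0 in WT (chr19:34553331-34553569), and inside Slc7a8, an amino acid transporter, 53.5 in KO and 32.0 in WT (chr14:54770721-54770959).

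Late-only sites were less often at gene ends than the other p65 sites, by a margin that depends on the rule. Their centre was within 1 kb of an end of a protein-coding gene at 107 of 1570 sites (6.82%, interval 5.62 to 8.18%), against 18.3% of sustained sites, 18.3% of transient early sites and 22.2% of all WT 8 h peaks. They lay elsewhere inside a gene in 49.7% of cases, against 43.3% of sustained sites, and outside genes in 43.5%, against 38.4%. Start sites gave the same picture, with 85 of 1520 late-only sites (5.59%) within 1 kb of one, against 16.4% of sustained sites and 20.1% of all WT 8 h peaks, chromosome 18 left out. The late-only share was 11.4% where a centre distance of 250 bp counted as far from earlier peaks, against 19.6% of sustained sites, and 14.1% where only earlier peaks at least 8-fold above local background counted, against 21.0%. The late-only share was the lower one at each level of p65 score. From the lowest to the highest class of WT score the share within 1 kb of a gene end was 7.0%, 6.07%, 8.83% and 4.89% at late-only sites, against 22.2%, 21.1%, 19.9% and 13.9% at sustained sites. It was 15.4% for the late-only sites within 1000 bp of an earlier centre and 4.72% for those over 10 kb away. Away from gene ends the SOCS1 timing was as before, with 4.54% at 30 min and 20.1% at 8 h in KO, and 2.64% at 30 min and 15.8% at 8 h in WT, at the 683 late-only sites outside genes.

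**Figure D4:**
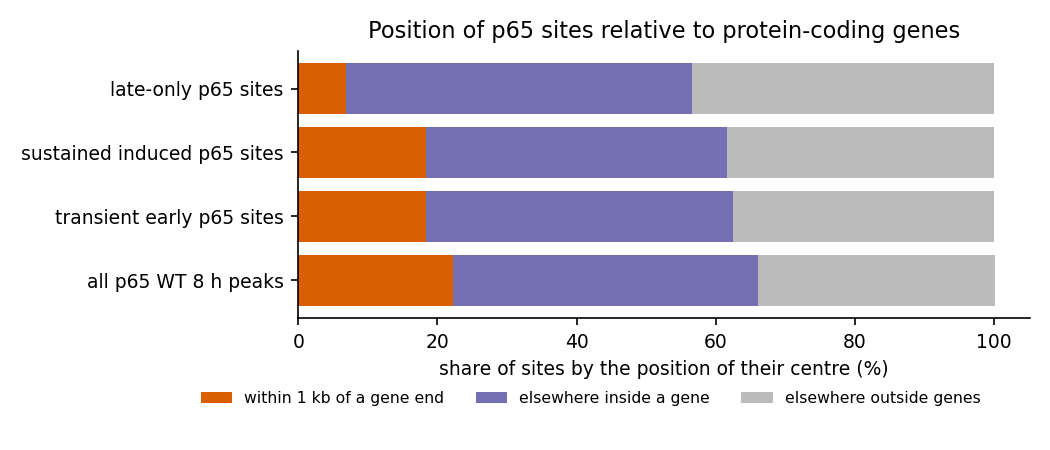
Share of sites (%) within 1 kb of an end of a protein-coding gene (orange), elsewhere inside a gene (purple) and elsewhere outside genes (grey). The orange part is 6.82% of late-only sites and 18.3 to 22.2% in the other 3 sets.

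Few genes had a late-only site, and nearly all of those had p65 nearby before. Within 10 kb of a gene end, 698 of 21887 protein-coding genes (3.19%) had a late-only site, while 3398 (15.5%) had a sustained one and 11522 (52.6%) any WT 8 h p65 site. Of the 698, 641 (91.8%) also had an earlier p65 centre within 10 kb, against 67.1% of all genes. All genes include those with no WT 8 h p65 site. The share among the 11522 genes with one was not computed, so the 91.8% does not show an excess. Only 521 of the 1570 sites (33.2%) were within 10 kb of any gene end, so most members were assigned no gene. Across 21 gene lists, 16 of 363 genes (4.41%) had a late-only site, close to the 3.19% of all genes. In 10 lists no gene had one, among them the 20 pro-inflammatory cytokines, all of which had some WT 8 h site, the 28 JAK-STAT and SOCS genes, and the 18 antigen presentation genes. At the share of 3.19% of all genes, lists this short could well hold none, so no absence is shown.

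Interferon-stimulated genes were the list with the most members at a late-only site, 4 of 28 (14.3%, against 3.19% of all genes), and 10 of these 28 had a sustained site. All 28 had some WT 8 h p65 site, and among the 11522 genes that did, 6.06% had a late-only one. The count was 2 with 8 h peaks at least 8-fold above local background and 2 with a gene link of 2 kb. The list is short, and the 4 genes each had p65 within 10 kb earlier as well. Inside Ifit2, whose product blocks viral translation, p65 scored 82.0 in KO and 36.5 in WT, 2636 bp from a 30 min centre. At Ifi44, an interferon-induced gene, the site at chr3:151749666-151749904 scored 42.5 in KO and 34.0 in WT, and SOCS1 there scored 14 in KO and 12.5 in WT at 8 h. It lay 125 bp from a gene end and 18885 bp from the nearest earlier p65 centre. Inside Oasl2, a relative of the oligoadenylate synthetases, the site scored 44.5 in KO and 28.5 in WT, with SOCS1 at 25 in KO and 15 in WT at 8 h. Near Ddx58, which encodes the RNA sensor RIG-I, the site scored 23.0 in KO and 12.5 in WT, close to the lowest callable scores, and no SOCS1 peak was called. At the other 3 genes SOCS1 was called in both genotypes at 8 h and in none of the earlier libraries.

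Each other list with any late-only site held 1 or 2 such genes, and their sites ranged from strong to barely called. Of 24 late secondary-response genes, 2 (8.33%) had a late-only site. The share was 3.19% of all genes and 6.06% of genes with any WT 8 h p65 site. The 2 genes were Fpr1 and Fpr2, which share the site given above, and 13 of the 24 had a sustained site. The lists are short, so no count in this paragraph shows an excess or a lack against those shares. In the NF-kB list Traf1 was the only one of 18, since the Nfkb1 sites lay over 10 kb from its ends. In the TLR4 list it was Map3k8, the kinase TPL2 that relays LPS signals to ERK, with p65 at 112.5 in KO and 50.5 in WT and SOCS1 at 22.5 in WT at 8 h alone. Dusp2, a phosphatase of MAP kinases, had a site scoring 55.5 in KO and 34.0 in WT, and Cxcl3, a neutrophil-attracting chemokine, had 2 WT peaks of 17 each across 1 KO peak of 58, with Pf4 and Ppbp also within 10 kb. Itga5 (19.5 in KO, 13 in WT) and Vcl (25.5 in KO, 12 in WT), of the actin and adhesion list, had weak sites. Tpi1 of glycolysis (32.5 in KO, 16 in WT) and the housekeeping gene Eef2 (41.0 in KO, 22.0 in WT) had 1 each. Among markers of other cell types, 1 of 14 lymphocyte genes had a late-only site, Ms4a1, which encodes CD20 (53.0 in KO, 30 in WT), and none of 12 neutrophil or 10 dendritic cell genes did. A peak near a gene does not show that the gene was expressed or regulated.

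No gene had more than 2 late-only sites, and 24 genes had 2. The highest-ranked of these were Ifi206, Ube2l6, Itpripl2, Slc39a13 and Keap1. Ube2l6, the conjugating enzyme for the interferon-induced modifier ISG15, had sites of 100.0 in KO and 46.0 in WT and of 23.5 in KO and 13 in WT. Keap1, the inhibitor of the antioxidant factor NRF2, had one inside it at 58 in KO and 37 in WT and one 8197 bp off at 89.0 in KO and 29.0 in WT. Slc39a13, a zinc transporter, had sites of 60.0 in KO and 44.5 in WT and of 29.5 in KO and 19.5 in WT. At Itpripl2 1 KO peak of 94.0 lay across both WT peaks, of 41.5 each. Ifi206 had its stronger site 173 bp upstream of the start site, with scores of 87.0 in KO and 64.5 in WT and SOCS1 at 37.5 in KO at 8 h, and a second inside the gene at 27.0 in KO and 29.0 in WT. Its IgG count was the highest of any member in WT, 10.5 tags, and the fold over IgG was 29.3 in KO and 8.31 in WT.

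A last group of 57 genes (8.17% of 698) had a late-only site and no earlier p65 centre within 10 kb of a gene end. The site itself could lie closer to an earlier centre, as at Pxt1, where the distance was 726 bp. Ifi206 ranked first among them, and several more belonged to interferon-inducible families, here named after their values were seen. Near Gbp10, a guanylate-binding GTPase, the site scored 21.0 in KO and 28.0 in WT, 293 bp from a gene end, with SOCS1 at 15.5 in KO and 14.5 in WT at 8 h. Inside Iigp1, an immunity-related GTPase, the site scored 43.5 in KO and 25.5 in WT and lay 98652 bp from the nearest earlier centre. Phf11a had a site of 27.5 in KO and 19 in WT, 182 bp from a gene end. Ubd, a ubiquitin-like modifier, had 12.5 in KO and 13 in WT, and Ifi44l shared the Ifi44 site. The group also held genes outside those families, such as Fam81b (59.5 in KO, 42.0 in WT) and the T cell gene Cd8b1 (58 in KO, 38.5 in WT). The vomeronasal receptor gene Vmn1r233 (41.0 in KO, 21.5 in WT at the stronger of its 2 sites) was in it too. So were the olfactory receptor genes Olfr1359, Olfr373, Olfr374, Olfr225 and Olfr175. The share of each family among all genes was not computed, so the interferon genes are examples and not a test of the group.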

How the data were processed

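CUT&RUN libraries of p65 and SOCS1 in KO and WT macrophages were used as 12 deposited peak lists. Per the submitters' processing notes, the tools were cutadapt, Bowtie2 2.4.1 and HOMER 4.11 with mm10. Per the file headers, the authors called each list from 1 library against the IgG library of its genotype and treatment, at an FDR of 0.001, 4-fold over IgG and over the local 10 kb, a Poisson p of 0.0001 and 1 tag per bp. The deposited signal is the authors' tag count scaled to 10000000 tags, also given for IgG with a floor of 0.5. The score is the authors' findPeaks score, not scaled to depth. The deposited ratio is the authors' fold over IgG or local background, and the fraction is their focus ratio. None was recomputed, and scores rank peaks within a list only.

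Members, gene lists and comparison sets were chosen with earlier results of these data known. Peaks were compared by 1 bp overlap or centre distance, linked to genes whose ends lay within 10 kb (RefSeq, GRCm38.p6, 21887 protein-coding genes, a table without strand), and given exact binomial 95% intervals (Python 3.11.15, SciPy 1.17.1). Named were genes of the 12 highest-ranked sites, up to 4 per list, the 5 with most sites, 6 sites by SOCS1 score and the sites at the 500 bp limit. A gene that the rule also named is not reported here. Motifs were searched in the 250 upstream bases. The member rule was checked on simulated peaks. Replicates were 1 per group, so no test was made. Alternatives covered the distance, overlap, peak strength, anchor list, SOCS1 matching, gene links and peak width.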

Additional observations from a re-analysis of the deposited data

Results flagged for a closer look

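The SOCS1 share of late-only sites moved in opposite directions in the 2 genotypes between control and 30 min. It differed by -1.34 percentage points in KO (30 min minus control, 6.37% against 7.71%) and by 1.02 points in WT (3.63% against 2.61%). The difference between genotypes was not tested, since each share comes from 1 library, and the intervals of the 2 times overlapped in both genotypes. The KO control SOCS1 list had IgG at the floor under 88.0% of its peaks, against 34.3% in the WT control list, and the part of this in the result was not tested.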

How the results depend on the processing

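No paired analysis was possible because each group had 1 library and the labels carry no replicate numbers. Of the 2 results that could turn direction, the SOCS1 difference stayed below 0 under every alternative tried, and the KO over WT signal ratio was 0.859 per bp of peak width against 1.77. The count of 1570 sites became 2675 with a 250 bp centre distance, 411 with 8 h peaks at least 8-fold above local background and 4127 when only earlier peaks at that strength counted. Under these 3 choices, in the same order, the genes with a site (698) numbered 1399, 172 and 2331, and the share within 1 kb of a gene end (6.82%) was 11.4%, 5.11% and 14.1%. Interferon-stimulated genes (4) numbered 2 with stronger 8 h peaks and 7 with stronger earlier peaks. The WT SOCS1 share at 8 h (15.5%) was 17.8% with stronger 8 h peaks and 23.0% with stronger earlier peaks, and the KO share (23.1%) was 32.2% with stronger earlier peaks. The difference from sustained sites in WT (-21.8 points) was -26 at 250 bp, -24.9 with stronger 8 h peaks and -24.0 from the KO list, and -7.87, -4.48 and -13.5 in the lowest, the second and the third score class. The signal ratio was 1.67 at 1000 bp, 1.69 with stronger 8 h peaks and 1.93 with stronger earlier peaks. The gene end share was 5.07% at 1000 bp, and 3.76% for ends within 500 bp. Gene links of 2 kb gave 215 genes and 2 interferon-stimulated genes, and links of 50 kb gave 2502 and 8. Of 2 choices made after seeing the data, leaving out the KO control list gave a difference of -25.3 points. Keeping only the 1223 sites that reached all earlier tag thresholds gave SOCS1 shares of 27.5% in KO and 18.9% in WT and a difference of -18.4 points. The causes were not tested, beyond the number of sites each choice admits.

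Spread between animals or runs cannot be given from 1 library a group. Sites with fewer tags than the lowest called score, 7 to 12 tags by list, could not be called.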

Other observations

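Further genes of immune function had a late-only site within 10 kb, all with an earlier p65 site nearby and all named after their values were seen. Among innate sensors, Tlr9, the endosomal DNA receptor, had p65 scores of 53.0 in KO and 21.0 in WT at a site inside the gene, 511 bp from an earlier centre. Nlrp1b, an inflammasome sensor, had 57.0 in KO and 25 in WT, with SOCS1 at 20.5 in KO and 22.0 in WT at 8 h. Mavs, the adaptor of RIG-I, had 12.5 in KO and 10.5 in WT, next to the calling limit.

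Among surface receptors, Cd36, a scavenger receptor, had 83.0 in KO and 40.0 in WT, 513 bp from an earlier centre. Il17ra had 44.0 in KO and 24.5 in WT, with SOCS1 at 30 in KO and 14.5 in WT at 8 h. Adora2a, the adenosine receptor that restrains inflammation, had 50 in KO and 34.0 in WT and no SOCS1 peak at 8 h. Near Cybb, the catalytic subunit of the phagocyte NADPH oxidase, a site 20726 bp from any earlier centre had 46.0 in KO and 17.5 in WT.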
